A study of Homo sapiens with 18 samples.

Results

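The libraries labelled LoVo LIN28B were compared with those labelled LoVo EV, the empty-vector control, in poly(A)-enriched RNA-seq of untreated cells. LoVo is a human cell line from a metastasis of a colorectal adenocarcinoma. The comparison took 6 of the 18 libraries of the series, 3 per group, and 16215 of the 61806 genes listed, those that reached 1 TPM in 3 or more of these 6 libraries. TPM is the length-scaled share of a library's transcripts that a gene takes. The LoVo LIN28B cells carried LIN28B and received no drug, and the LoVo EV cells carried the vector alone. The other 12 libraries were DLD-1 cells, another human colorectal adenocarcinoma line, with LIN28B or EV, and LIN28B cells of both lines with 5 µM alpelisib, a PI3K inhibitor. The DLD-1 libraries are set beside the LoVo values below, and the alpelisib libraries entered the model for their spread alone. The sources used here do not state whether a LIN28B line was a single clone or a pool, which promoter drove LIN28B, or whether replicates were separate cultures. The p-values hence reflect only how far these libraries scatter, and that scatter may be technical.

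The line label was checked first, because it bears on every value that follows. Pearson's r of log2(TPM + 1) across genes, which are not independent replicates, lay between 0.8708 and 0.9012 for pairs of a LoVo LIN28B and a LoVo EV library. It lay between 0.9623 and 0.9681 for pairs of a LoVo LIN28B and a DLD-1 LIN28B library, and between 0.979 and 0.98 within LoVo LIN28B. LoVo-labelled LIN28B differed from DLD-1 LIN28B in 2599 of 16215 genes (16.0%, limma, adjusted p under 0.05), 1512 of them higher and 1087 lower. Without DLD-1 LIN28B replicate 1 the lower genes numbered 634. LoVo EV differed from DLD-1 EV in 10074 genes (62.1%). The libraries labelled LoVo LIN28B thus lay nearer to DLD-1 than to the control of their own label, without matching DLD-1. An effect of LIN28B and a difference of cell background between the LoVo-labelled groups cannot be told apart. Depth is unknown from TPM, and the libraries listed 23010 to 25501 genes above 0.

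LIN28B, an RNA-binding protein of stem and fetal cells, keeps let-7 microRNAs from maturing. It holds the let-7 precursor through its loop, where its zinc knuckles read the motif GGAG. Mature let-7 lowers the mRNAs that carry a match to its seed, among them HMGA2, MYC and LIN28B itself, so cells with LIN28B are known for raised let-7 targets and growth factor signalling. PI3K, the enzyme that links growth factor receptors to the kinase AKT, is the pathway the series names. MicroRNAs were not measured in these poly(A) libraries.

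The sequences behind this relation are shown because the target values below are read against them. All 9 let-7 family mature names in RefSeq share the seed GAGGUAG at bases 2 to 8, in capitals in these 3 members.
hsa-let-7a-5p: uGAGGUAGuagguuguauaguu
hsa-let-7g-5p: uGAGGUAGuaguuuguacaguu
hsa-miR-98-5p: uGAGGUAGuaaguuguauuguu
Of 12 let-7 family hairpins, 9 hold GGAG on the transcribed strand, against 678 of all 1562 human hairpins (43.4%). MIRLET7G (GRCh38.p14 chr3:52268278-52268361, minus strand), with its GGAG in capitals, and MIRLET7A3 (chr22:46112749-46112822, plus strand), in which these letters do not occur, read as follows.
MIRLET7G: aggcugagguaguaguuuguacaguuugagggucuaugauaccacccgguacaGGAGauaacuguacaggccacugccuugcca
MIRLET7A3: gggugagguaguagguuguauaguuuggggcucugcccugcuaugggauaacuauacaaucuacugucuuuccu
HMGA2, on chromosome 12, holds 4 matches to the seed in the 3003 bases of its 3′ UTR (transcript ENST00000403681.6 of GENCODE 29), starting at bases 21, 1256, 1668 and 2521, with the matched bases in capitals.
HMGA2 site 1: gccaacgttcgatttCTACCTCagc
HMGA2 site 2: ccccactactcaataCTACCTCtga
HMGA2 site 3: ttgacttgcaaagacCTACCTCcag
HMGA2 site 4: aatcaaaacacactaCTACCTCtta

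LIN28B (GRCh38 chr6:104936616-105083332, plus strand) measured 706, 682 and 674 TPM in LoVo LIN28B, against 4.91, 3.66 and 3.87 TPM in LoVo EV. Every LIN28B library lay above every control, and the ratio of the means was 166 (log2 difference 7.07 ± 0.15 SE on the log2(TPM + 1) scale, limma, adjusted p = 8.1e-15). The label of the transgene and the data therefore went the same way. In DLD-1 the gene measured 462 ± 46.3 TPM with LIN28B and 1.76 ± 0.853 TPM with EV (SD, n = 3), and the log2 differences of the lines did not differ beyond their error (-0.35, limma, adjusted p = 0.183). Its paralog LIN28A was listed at 0 in all 3 LoVo LIN28B libraries and averaged 0.00742 TPM in LoVo EV, too low to be tested.

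Across all genes, 7336 were called higher (45.2%) and 2964 lower (18.3%) in LoVo LIN28B, 10300 together (63.5%, limma on log2(TPM + 1), Benjamini-Hochberg adjusted p under 0.05). Differences of 2-fold or more on that scale were called for 2557 higher and 1299 lower genes, and 8-fold or more for 49 higher and 137 lower genes. The same transgene in DLD-1 gave 509 calls (3.14%), 250 higher (1.54%) and 259 lower (1.60%), of which 24 and 22 reached 2-fold. TPM fixes each library's total. The median of all genes was 0.297 log2, and -0.018 after scaling the libraries by the median of ratios. With this scaling 9725 genes were called (60.0%), 4819 higher (29.7%) and 4906 lower (30.3%). The mean log2 scaling factor of LoVo EV minus that of LoVo LIN28B was -0.365. Differences below about that size are therefore given with their scaled value where the sign or call changes. The rule of 1 TPM admitted 382 genes through LoVo LIN28B alone and 630 through LoVo EV alone. Such genes had to differ, so their p-values are descriptions. Among genes described below they include KIT, SLC39A2, FABP1, TIMP4, GASK1B, MYCN, LGR5 and PDGFRB on the side of LoVo LIN28B, and GTSF1, TNFRSF6B, MAGEB2, WNT16, NPW, AATK, EPHA3, KRT5, KRT6A and HLA-DRB1 on the side of LoVo EV.

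**Figure D1:**
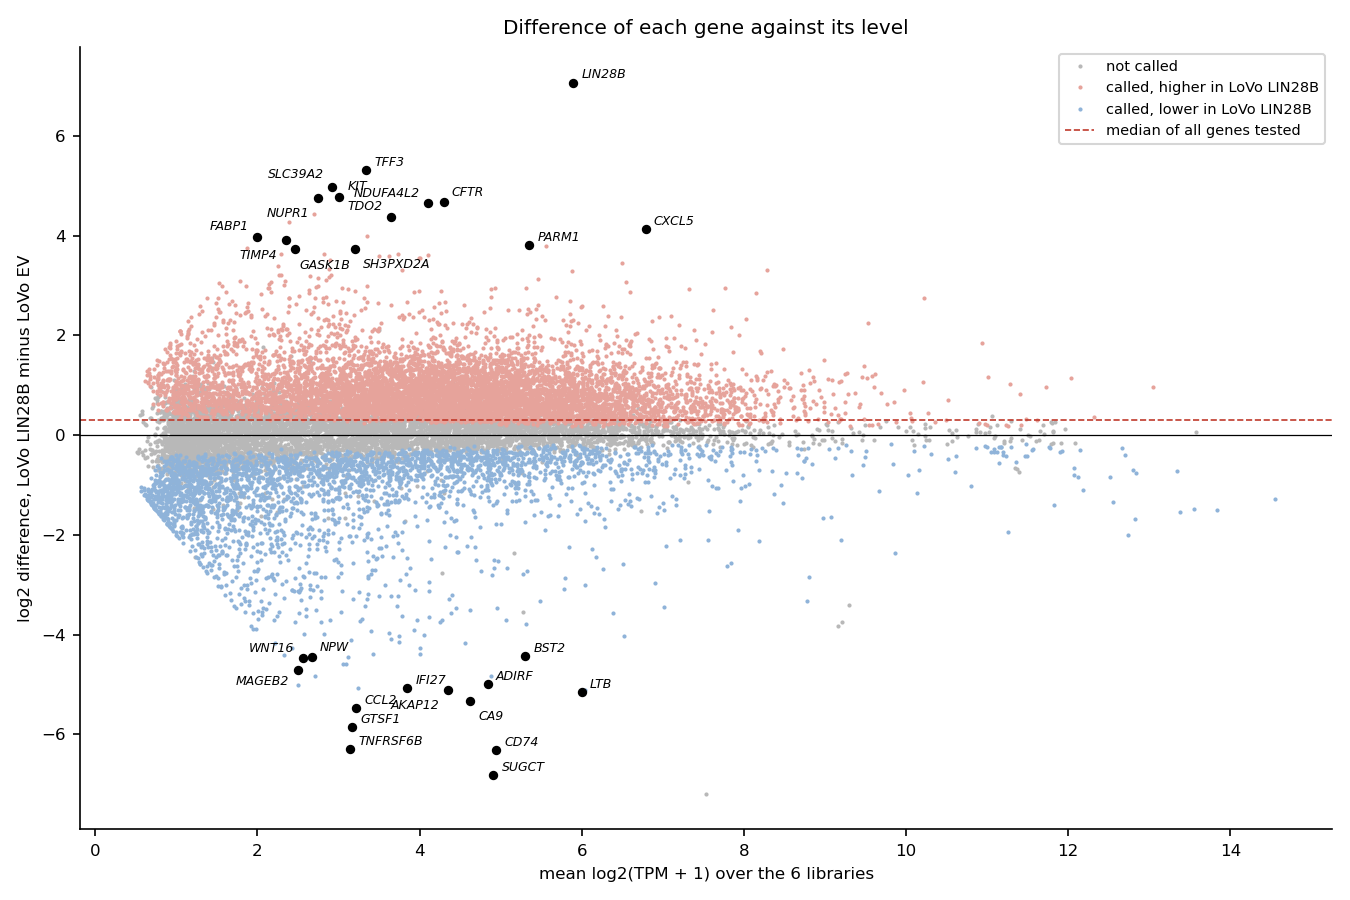
Each point is 1 of the 16215 genes, with its mean log2(TPM + 1) over the 6 LoVo-labelled libraries on the x axis and the log2 difference, LoVo LIN28B minus LoVo EV, on the y axis. Red and blue points are called higher and lower, grey points are not called, the dashed line is the median of all genes (0.297), and genes of the largest rises and falls under the naming rule are labelled, from LIN28B at 7.07 to SUGCT at -6.82.

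The largest rise after LIN28B was that of TFF3. This gene (chr21:42311667-42315651, minus strand), the trefoil peptide of goblet cells that protects the mucosa, measured 63.5, 64.4 and 61.0 TPM in LoVo LIN28B and 1.36, 0 and 0.746 TPM in LoVo EV (log2 difference 5.32 ± 0.21 SE, limma, adjusted p = 6.58e-12). The groups were far apart, and DLD-1 lay at the high level with either vector, 59.1 TPM with LIN28B and 65.7 TPM with EV. KIT (chr4:54657918-54740715, plus strand), the receptor kinase for stem cell factor, measured 41.6, 44.1 and 38.0 TPM in LoVo LIN28B and 0.683, 0.330 and 0.608 TPM in LoVo EV (4.78 ± 0.11 SE, limma, adjusted p = 2.38e-14), a ratio of means of 76.3. DLD-1 again held it throughout, with 33.9 TPM with LIN28B and 40.1 TPM with EV. CFTR, the epithelial chloride channel, measured 97.4, 102.3 and 94.8 TPM in LoVo LIN28B and 4.31, 2.41 and 2.25 TPM in LoVo EV (4.67 ± 0.15 SE, limma, adjusted p = 5.89e-13), beside 34.3 TPM with LIN28B and 39.1 TPM with EV in DLD-1. For these 3 genes the LoVo EV libraries were the low ones among the untreated groups.

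A further set was high in LoVo LIN28B alone among the untreated groups. SLC39A2, a zinc importer, measured 41.2, 45.6 and 38.5 TPM in LoVo LIN28B and 0.238, 0.172 and 0.698 TPM in LoVo EV (4.98 log2, limma, adjusted p = 2.96e-13), and stayed under 0.1 TPM on average in DLD-1 LIN28B and DLD-1 EV. NDUFA4L2, a hypoxia-induced mitochondrial protein, measured 86.2, 80.7 and 90.3 TPM in LoVo LIN28B and 3.26, 2.05 and 2.11 TPM in LoVo EV (4.66 log2, limma, adjusted p = 4.08e-11), beside 2.16 TPM with LIN28B and 3.68 TPM with EV in DLD-1. The naming rule required groups that do not overlap, so their separation is part of the choice. TDO2, a tryptophan-degrading dioxygenase, averaged 56.2 ± 4.71 TPM in LoVo LIN28B and 1.73 ± 0.125 TPM in LoVo EV, and 2.89 TPM with LIN28B and 1.84 TPM with EV in DLD-1. NUPR1, a stress-induced nuclear protein, measured 33.3, 27.0 and 43.0 TPM in LoVo LIN28B and 1.07, 0.0385 and 0 TPM in LoVo EV, with 6.43 TPM with LIN28B and 2.37 TPM with EV in DLD-1. FABP1, the fatty acid carrier of liver and enterocytes, measured 9.51, 24.2 and 13.8 TPM in LoVo LIN28B and was listed at 0 in all 3 LoVo EV libraries, so no fold is given (limma, adjusted p = 8.95e-09). These 5 genes differed between LoVo LIN28B and DLD-1 LIN28B as well, by 2.31 log2 for NUPR1 up to 5.34 log2 for SLC39A2 (limma, adjusted p = 0.000793 for NUPR1 and 3.83e-13 for SLC39A2).

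The other rises under the naming rule resembled TFF3 and KIT, with DLD-1 well above LoVo EV. The neutrophil chemokine CXCL5 averaged 461 ± 24.7 TPM in LoVo LIN28B and 25.9 ± 6.62 TPM in LoVo EV, beside 607 TPM with LIN28B and 524 TPM with EV in DLD-1. PARM1, a mucin-like membrane protein, averaged 152 ± 7.06 TPM in LoVo LIN28B and 10.1 ± 2.5 TPM in LoVo EV. TIMP4, an inhibitor of matrix metalloproteinases, averaged 18.8 ± 2.37 TPM in LoVo LIN28B and 0.314 ± 0.149 TPM in LoVo EV. GASK1B, a Golgi protein, averaged 19.2 ± 0.951 TPM in LoVo LIN28B and 0.513 ± 0.0714 TPM in LoVo EV, and SH3PXD2A, a scaffold of invadopodia, averaged 32.6 ± 3.17 TPM in LoVo LIN28B and 1.54 ± 0.243 TPM in LoVo EV (SD, n = 3). All 5 were called (limma, adjusted p of 1.22e-10 or smaller). In DLD-1 they averaged 10.4 TPM or more in each vector group.

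The 15 largest falls averaged 0 to 6.78 TPM in DLD-1 LIN28B and DLD-1 EV, below LoVo EV for each gene. The largest fall was that of SUGCT. This gene (chr7:40134977-40860763, plus strand), a mitochondrial CoA transferase for glutarate, measured 1.74, 1.53 and 2.26 TPM in LoVo LIN28B and 344, 306 and 309 TPM in LoVo EV (log2 difference -6.82 ± 0.38 SE, limma, adjusted p = 3.27e-10). DLD-1 averaged 1.37 TPM with LIN28B and 2.55 TPM with EV, near the LoVo LIN28B level. CD74 (chr5:150401637-150412929, minus strand), the invariant chain that guides MHC class II molecules, measured 3.16, 2.73 and 1.61 TPM in LoVo LIN28B and 258, 276 and 287 TPM in LoVo EV (-6.32 ± 0.30 SE, limma, adjusted p = 3.52e-11). Here too DLD-1 was low, at 1.60 TPM with LIN28B and 1.37 TPM with EV. GTSF1, a germline factor that acts with PIWI proteins, measured 0.221, 0 and 0.354 TPM in LoVo LIN28B and 66.5, 62.1 and 73.7 TPM in LoVo EV (-5.85, limma, adjusted p = 4.73e-14), and was listed at 0 in DLD-1 LIN28B and DLD-1 EV. TNFRSF6B, a secreted decoy receptor for FAS ligand, was listed at 0 in all 3 LoVo LIN28B libraries, against 74.5, 87.3 and 71.0 TPM in LoVo EV (limma, adjusted p = 2.65e-15), and at 0 in all 15 libraries outside LoVo EV. It lies within an annotated readthrough gene with RTEL1, so how its reads were assigned is uncertain.

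CCL2, the monocyte chemokine, measured 0.253, 1.18 and 0 TPM in LoVo LIN28B and 53.7, 62.6 and 67.0 TPM in LoVo EV (-5.47 log2, limma, adjusted p = 4.91e-11). LTB, a membrane lymphotoxin of the TNF family, averaged 9.84 ± 1.95 TPM in LoVo LIN28B and 381 ± 35.6 TPM in LoVo EV (-5.15 log2, limma, adjusted p = 1.33e-12). CA9, a hypoxia-induced carbonic anhydrase of the cell surface, measured 2.57, 1.51 and 5.50 TPM in LoVo LIN28B and 159, 142 and 165 TPM in LoVo EV. The interferon-induced antiviral membrane protein BST2 averaged 7.45 ± 0.158 TPM in LoVo LIN28B and 185 ± 41.0 TPM in LoVo EV, and IFI27, another interferon-induced gene, measured 1.63, 0.239 and 3.72 TPM in LoVo LIN28B and 113, 83.1 and 59.7 TPM in LoVo EV. The signalling scaffold AKAP12 averaged 2.46 ± 0.350 TPM in LoVo LIN28B and 122 ± 32.8 TPM in LoVo EV (SD, n = 3). ADIRF, an adipogenesis regulator, WNT16, a Wnt ligand, NPW, a neuropeptide, and MAGEB2, a cancer-testis antigen, were further falls under the naming rule, with log2 differences of -5.00, -4.48, -4.46 and -4.71 (limma, adjusted p of 4.67e-06 or smaller). LoVo LIN28B differed from DLD-1 LIN28B in 12 of the 15 rises and 4 of the 15 falls (limma), beside 16.0% of all genes. The rises were chosen as high and the falls as low in LoVo LIN28B, so nothing is read from these counts.

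**Figure D2:**
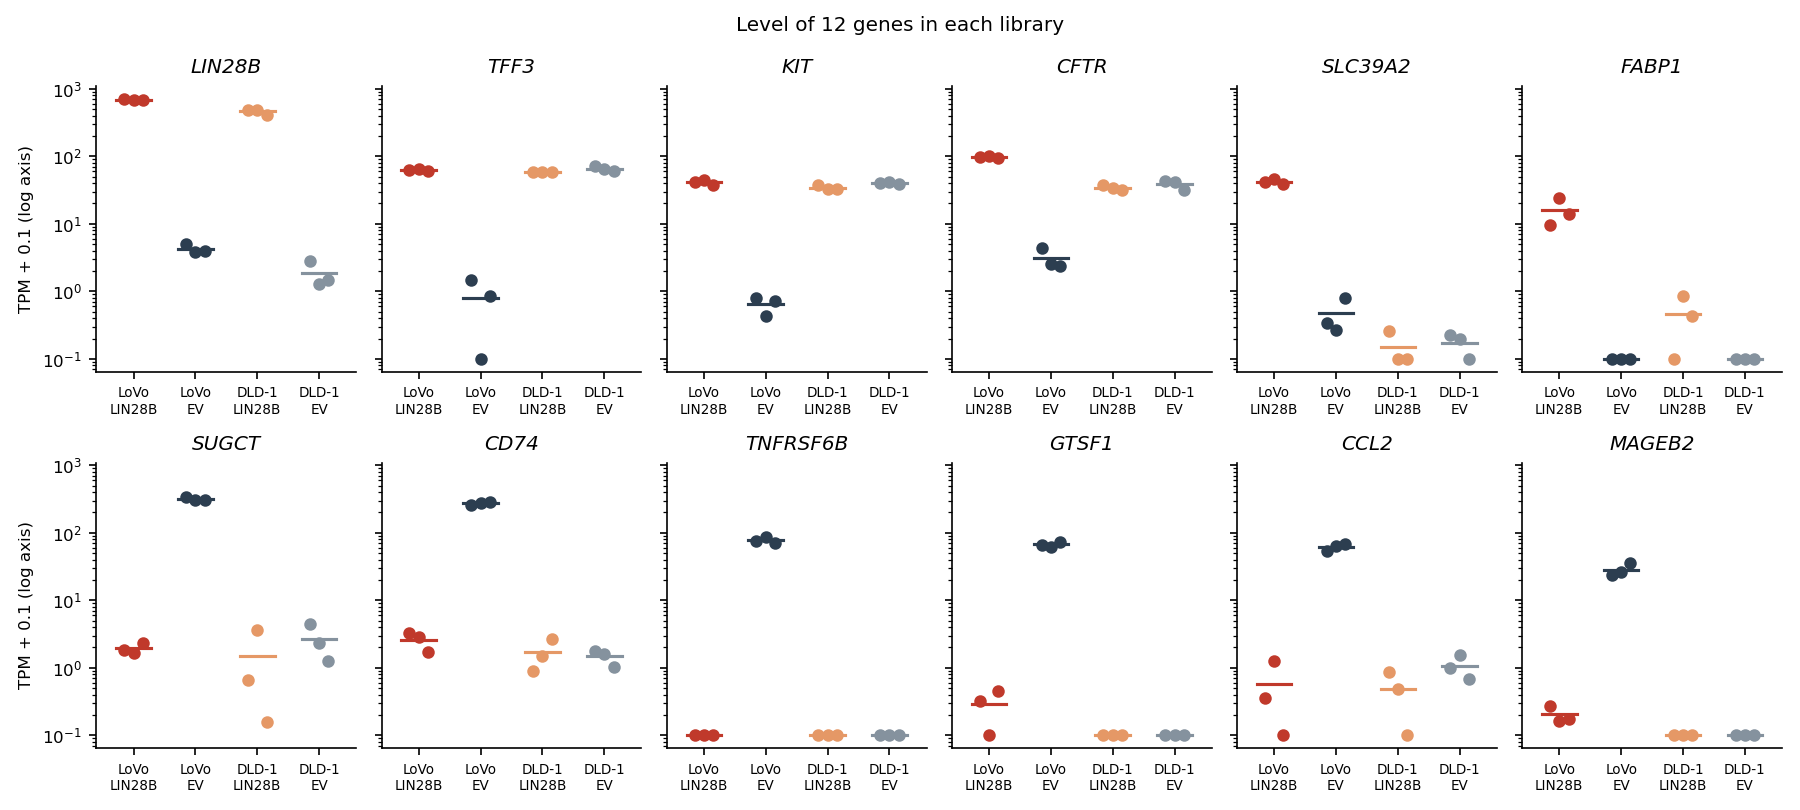
Level of 12 genes in each library of the 4 untreated groups, as TPM + 0.1 on a log axis, with 1 point per library and a line at the group mean. For TFF3, KIT and CFTR the LoVo EV libraries are low and the other groups high, and for SUGCT, CD74, TNFRSF6B, GTSF1, CCL2 and MAGEB2 the LoVo EV libraries are high and the other groups low, while SLC39A2 and FABP1 are high in LoVo LIN28B alone.

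The difference between LIN28B and EV libraries was also compared between the line labels, a contrast that carries any difference of cell background. It was called for 7933 of 16215 genes (48.9%), 5634 higher and 2299 lower under the LoVo label (limma). The 30 largest rises and falls were chosen on the LoVo values within it, so their 29 calls are no support, and LIN28B was the one gene not called. In DLD-1, 2 of the 30 were called (limma): LIN28B and SH3PXD2A, an opposite change, at 18.2 ± 1.58 TPM with LIN28B and 30.6 ± 6.82 TPM with EV (-0.70, limma, adjusted p = 0.0243). The gene of the 30 with the next largest difference in DLD-1 was NUPR1, at 1.12 log2 (limma, adjusted p = 0.17).

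**Figure D3:**
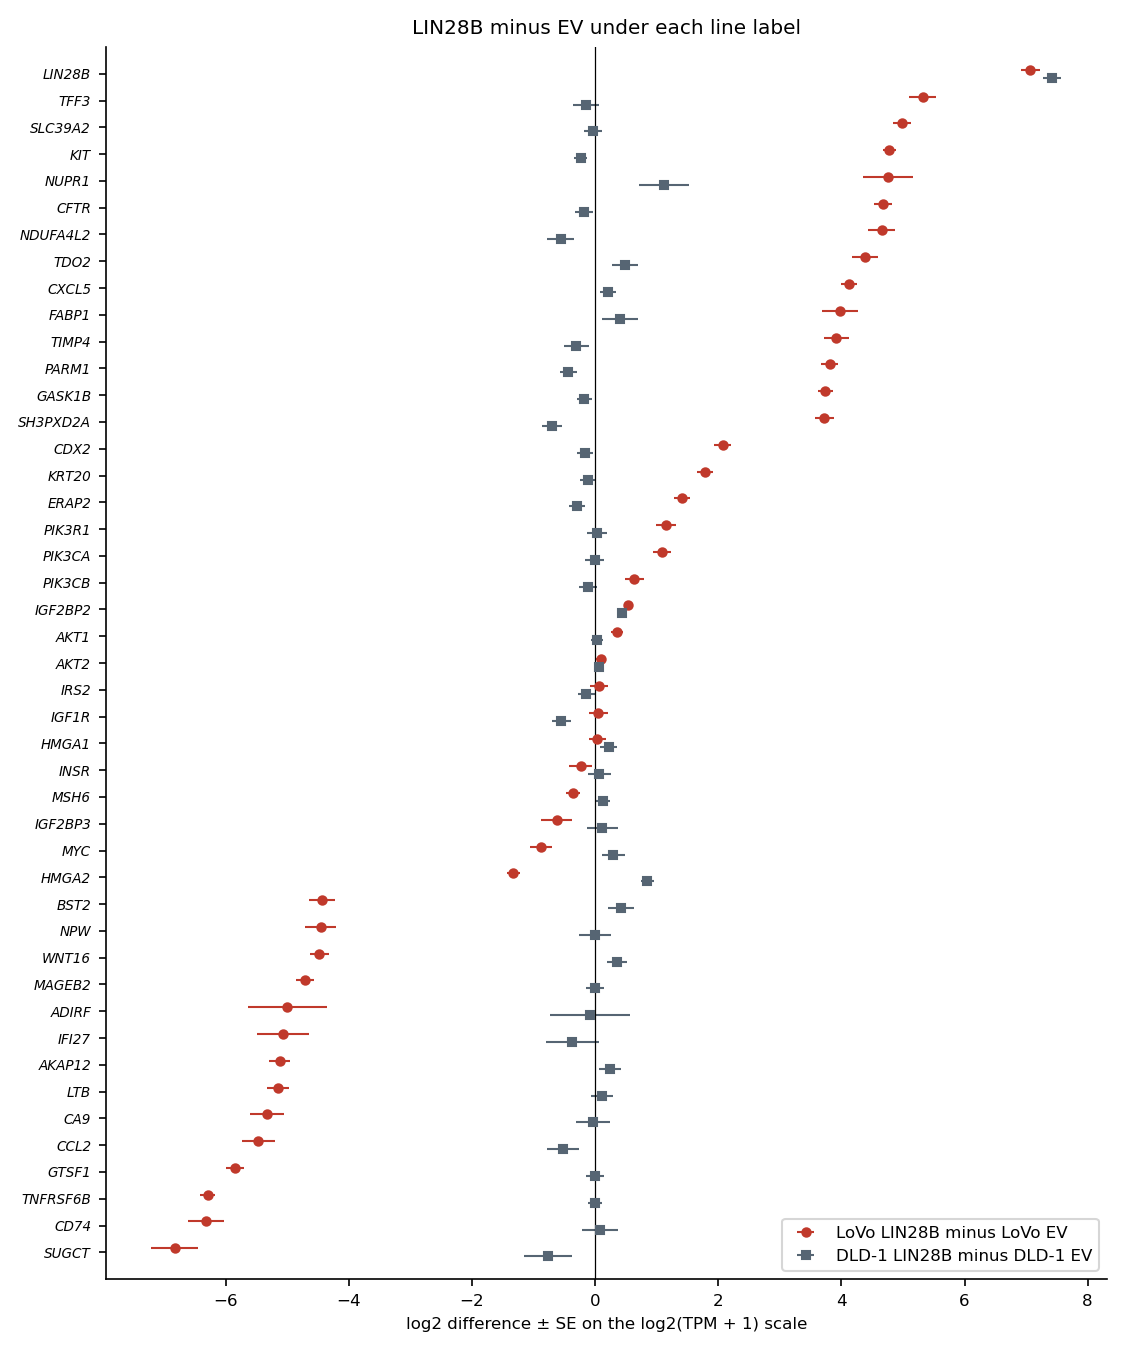
Log2 difference, LIN28B minus EV, with its standard error, for the largest rises and falls and the genes named in the design: red circles for the LoVo label, grey squares for DLD-1 (3 libraries per group). LIN28B lies at 7.07 and 7.42 in the 2 lines, while the other red circles spread from -6.82 to 5.32 and the grey squares stay between -0.77 and 1.12.

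The let-7 machinery was read next. The counts of this and the following lists stand against 45.2% higher and 18.3% lower among all genes, and 29.7% and 30.3% under the scaling. Their DLD-1 counts stand against 1.54% higher and 1.60% lower among all genes. Members that passed the rule through 1 group alone are counted in the lists. Of 18 tested genes of the list, LIN28B included, 11 rose and 1 fell, and the median was 0.512 log2, against 0.297 for all genes. Under median-of-ratios scaling 6 rose and 2 fell, with a median of 0.185. MIRLET7BHG, the host transcript of MIRLET7B and MIRLET7A3, averaged 50.5 ± 7.43 TPM in LoVo LIN28B and 17.2 ± 2.71 TPM in LoVo EV (limma, adjusted p = 2.94e-08). MIR100HG, a further let-7 host transcript named after its values were seen, went the other way, at 0.242 TPM in LoVo LIN28B and 33.9 TPM in LoVo EV. A host transcript is not the mature microRNA. DICER1, the nuclease that cuts let-7 from its precursor, averaged 20.5 ± 1.32 TPM in LoVo LIN28B and 7.18 ± 0.577 TPM in LoVo EV (1.40 log2, limma, adjusted p = 1.9e-07), and its partners TARBP2 and PRKRA rose by 0.73 and 0.99 log2. In DLD-1 1 gene of the list was called higher and 0 lower by limma, LIN28B itself.

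The let-7 targets did not move one way. Of 36 tested, 20 rose and 6 fell (median 0.433 log2), and under the scaling 16 rose and 12 fell (median 0.08, against -0.018 for all genes). In DLD-1 5 rose and 0 fell (limma), beside 1.54% and 1.60% of all genes, with a median of 0.169 log2, against 0.0194 for all genes. HMGA2, the chromatin protein whose 4 seed matches are shown above, measured 24.9, 27.8 and 23.1 TPM in LoVo LIN28B and 56.8, 63.7 and 74.7 TPM in LoVo EV. All LoVo LIN28B libraries lay below all controls (-1.33 ± 0.11 SE, limma, adjusted p = 4.2e-08). In DLD-1 the gene was higher with LIN28B, at 34.0 ± 3.58 TPM with LIN28B and 18.4 ± 0.977 TPM with EV (0.85, limma, adjusted p = 0.000796), and the effects of the lines differed by -2.18 (limma, adjusted p = 2.24e-08). MYC, the growth-promoting transcription factor, averaged 37.9 ± 0.268 TPM in LoVo LIN28B and 71.9 ± 20.0 TPM in LoVo EV (-0.87, limma, adjusted p = 0.00052). The members with the smallest p went both ways. CCNA2, cyclin A2, rose by 1.64 log2 and MYCN, a relative of MYC, by 2.53 log2, at 5.92 ± 0.962 TPM in LoVo LIN28B and 0.192 ± 0.0518 TPM in LoVo EV. CCND2, cyclin D2, fell by 1.67 log2 and PRDM1, a repressor of plasma cell fate, by 1.97 log2. Neither these 4 nor DICER1 holds the 7 letters CTACCTC in the 3′ UTR searched.

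The IGF2BP genes, oncofetal mRNA-binding proteins, were mixed. IGF2BP2 averaged 94.9 ± 7.84 TPM in LoVo LIN28B and 65.0 ± 3.37 TPM in LoVo EV (0.54, limma, adjusted p = 8.19e-06; 0.18 and limma adjusted p = 0.0438 under the scaling), and rose in DLD-1 too (0.43, limma, adjusted p = 0.00463). IGF2BP3 averaged 20.3 ± 2.85 TPM in LoVo LIN28B and 32.7 ± 9.8 TPM in LoVo EV (-0.62, limma, adjusted p = 0.0425), a call lost without LoVo EV replicate 3 (limma, adjusted p = 0.192) and under 6 other alternatives. IGF2BP1 averaged 0.573 TPM in LoVo LIN28B and 0.478 TPM in LoVo EV and did not pass the rule. HMGA1 averaged 304 ± 34.1 TPM in LoVo LIN28B and 299 ± 52.9 TPM in LoVo EV (0.03, limma, adjusted p = 0.845), which the scaling turned to -0.33 (limma, adjusted p = 0.0188).

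Seed matches were then counted over all genes with a 3′ UTR in GENCODE 29, 12558 in number, with both a difference and a search for CTACCTC on the transcript strand. Relative to the median of all these genes, the median log2 difference under the LoVo label was -0.013 for genes with no match (11326), 0.15 for those with 1 match (1097) and 0.157 for those with 2 or more (135). The UTRs differed in length between these classes, with medians of 929, 2495 and 4708 bases. Within UTRs of 1500 to under 4500 bases, it was 0.191 for the 564 genes with a match and 0.128 for the 3307 genes without one. In DLD-1 the same length range gave 0.03 with a match and -0.004 without one, with 15 genes higher and 5 lower among those with a match and 36 higher and 54 lower among those without (limma). These values describe the letters in 1 UTR per gene and are no evidence of binding.

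Components of the PI3K, AKT and mTOR pathway were more often higher than lower under the LoVo label, as all genes were. Of 41 tested, 27 rose (65.9%, beside 45.2% of all genes) and 1 fell (2.44%, beside 18.3%), with a median of 0.511 log2, beside 0.297 for all genes, and under the scaling 15 rose and 9 fell (median 0.183). In DLD-1 1 rose and 0 fell (limma). PIK3CA, the alpha catalytic subunit, averaged 15.0 ± 0.623 TPM in LoVo LIN28B and 6.64 ± 1.80 TPM in LoVo EV (1.09, limma, adjusted p = 7.68e-06), and PIK3R1, the regulatory subunit, averaged 23.2 ± 1.88 TPM in LoVo LIN28B and 10.1 ± 2.54 TPM in LoVo EV (1.16, limma, adjusted p = 1.01e-05). The beta subunit PIK3CB rose by 0.64 log2 (limma, adjusted p = 0.0013), a call lost under the scaling (0.30, limma, adjusted p = 0.0642), and the delta subunit PIK3CD, found mostly in leukocytes and named after its values were seen, fell, at 2.43 ± 0.234 TPM in LoVo LIN28B and 5.79 ± 1.36 TPM in LoVo EV. GAB1, a docking protein of growth factor receptors, averaged 15.7 ± 2.30 TPM in LoVo LIN28B and 2.60 ± 0.968 TPM in LoVo EV (2.24 log2), and GSK3B, a kinase that AKT inhibits, averaged 32.7 ± 1.28 TPM in LoVo LIN28B and 12.1 ± 3.88 TPM in LoVo EV (1.40 log2). The class II kinases PIK3C2B and PIK3C2A rose by 1.67 and 1.09 log2. AKT1 was called (0.36, limma, adjusted p = 0.00444), but the scaling left 0.00 (limma, adjusted p = 0.998) and removal of mitochondrial genes 0.16 (limma, adjusted p = 0.0991), and AKT2 had a log2 difference of 0.09 (limma, adjusted p = 0.328), turned to -0.27 by the scaling (limma, adjusted p = 0.0151). IRS2, INSR and IGF1R, the adaptor and receptors of insulin and its growth factor, had log2 differences of 0.07, -0.23 and 0.05 and were not called by limma. IRS2 and IGF1R turned negative under the scaling, at -0.21 and -0.28, and INSR was then called lower (-0.55, limma, adjusted p = 0.018).

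Among receptor tyrosine kinases 15 of 34 tested rose (44.1%, near the 45.2% of all genes) and 11 fell (32.4%, beside 18.3%), with a median of 0.104 log2, against 9 and 15 under the scaling. Of the 34, 2 passed the rule through LoVo LIN28B alone, KIT among them, and 4 through LoVo EV alone, EPHA3 and AATK among them. These had to differ, so nothing is read from the share that fell. KIT stood far above the others. STYK1, an orphan kinase with a single membrane pass, averaged 17.2 ± 1.82 TPM in LoVo LIN28B and 2.95 ± 0.635 TPM in LoVo EV. The ephrin receptors EPHB6 and EPHA3 fell by 1.24 and 1.90 log2, and AATK, a kinase of neurons, by 1.59 log2.

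Genes of the differentiated intestine were higher in LoVo LIN28B. Of 15 tested colorectal epithelial markers 14 rose and 0 fell by limma (median 1.943 log2), with 12 higher and 2 lower under the scaling. Of 19 tested goblet and secretory genes 13 rose and 2 fell (median 1.248), of 18 tested enterocyte genes 15 rose and 2 fell (median 1.589), and of 31 tested intestinal transcription factors 24 rose and 2 fell (median 1.434), beside 0.297 for all genes. Of these, 2 goblet genes, 2 enterocyte genes and 4 transcription factors passed the rule through LoVo LIN28B alone and had to differ. So did 1 goblet gene and 1 transcription factor that passed through LoVo EV alone. In DLD-1, 1 marker rose and 3 fell, and 1 goblet gene rose and 2 fell (limma). Of the enterocyte genes 1 rose and 0 fell there, and of the transcription factors 1 rose and 5 fell (limma). Among all genes 1.54% were higher and 1.60% lower in DLD-1. LoVo EV had the lowest summed level of the untreated groups in each list. DLD-1 EV lay above LoVo LIN28B in these sums for the marker, goblet and enterocyte lists, and below it for the transcription factors. TFF1, another trefoil peptide, named after its values were seen, averaged 46.3 ± 10.9 TPM in LoVo LIN28B and 3.08 ± 1.71 TPM in LoVo EV. REG4, a secreted lectin, averaged 53.7 ± 2.78 TPM in LoVo LIN28B and 3.71 ± 0.573 TPM in LoVo EV (3.55, limma, adjusted p = 4.32e-11), and DLD-1 was low for it, at 3.14 TPM with LIN28B and 2.94 TPM with EV. The adhesion molecule CDH17, liver-intestine cadherin, averaged 130.0 ± 7.29 TPM in LoVo LIN28B and 13.9 ± 2.34 TPM in LoVo EV (3.14, limma, adjusted p = 2.86e-12), and VIL1, the microvillus protein villin, averaged 24.8 ± 1.69 TPM in LoVo LIN28B and 3.03 ± 0.256 TPM in LoVo EV. PHGR1, a small protein of the gut epithelium, rose by 3.32 log2 and CEACAM1, an adhesion molecule, by 2.38 log2. ESPN, an actin bundler of microvilli named after its values were seen, went against its list, with 6.48 ± 1.92 TPM in LoVo LIN28B and 82.6 ± 6.88 TPM in LoVo EV (-3.51, limma, adjusted p = 3.45e-08).

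Among intestinal transcription factors 5 of the 31 were not called, and under the scaling 23 rose and 6 fell. CDX2, the master regulator of intestinal identity, averaged 402 ± 53.8 TPM in LoVo LIN28B and 94.9 ± 14.7 TPM in LoVo EV (2.07 log2; 227 TPM with LIN28B and 254 TPM with EV in DLD-1). FOXA1, a pioneer factor, averaged 79.8 ± 1.77 TPM in LoVo LIN28B and 13.3 ± 1.79 TPM in LoVo EV (2.50, limma, adjusted p = 3.25e-12), and GATA6, an endoderm factor, averaged 30.8 ± 1.75 TPM in LoVo LIN28B and 5.02 ± 0.646 TPM in LoVo EV. The epithelial factor ELF3 averaged 1614 ± 52.4 TPM in LoVo LIN28B and 339 ± 30.1 TPM in LoVo EV. KRT20, the keratin of mature colon cells, set LoVo LIN28B apart from both neighbours, at 4.72 ± 0.347 TPM in LoVo LIN28B, 0.686 ± 0.360 TPM in LoVo EV, 114 TPM in DLD-1 LIN28B and 124 TPM in DLD-1 EV. HOX genes record position along the gut, and a difference between their clusters was not tested. Of 11 tested HOXA genes 9 rose and 1 fell (median 1.026 log2), with 8 and 1 under the scaling. Of 9 tested HOXB genes 3 rose and 3 fell (median -0.119), with 3 and 4 under the scaling. Both tested HOXC genes fell (median -1.081), and of 4 tested HOXD genes 1 rose and 0 fell by limma (median 0.34), with 0 and 1 under the scaling. HOXA6 averaged 33.7 ± 3.46 TPM in LoVo LIN28B and 8.03 ± 0.578 TPM in LoVo EV, and HOXB5 averaged 19.1 ± 1.71 TPM in LoVo LIN28B and 56.4 ± 10.6 TPM in LoVo EV. Over all 26 HOX genes tested, 13 rose and 6 fell, and 11 and 8 under the scaling.

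Stem cell and Wnt target genes went both ways. Of 32 tested, 14 rose (43.8%, beside 45.2% of all genes) and 10 fell (31.2%, beside 18.3%), with a median of -0.013 log2, and 13 and 16 under the scaling. LGR5, the receptor that marks crypt stem cells, averaged 6.20 ± 0.320 TPM in LoVo LIN28B and 0.499 ± 0.0763 TPM in LoVo EV (2.26 log2), and SOX9, a crypt transcription factor, rose by 1.09 log2. The secreted or membrane Wnt inhibitors among the members with the smallest p were lower, a grouping made after their values were seen. Wnt inhibitors were not examined as a class, so no trend is read from these genes. NOTUM, which removes the lipid of Wnt ligands, averaged 2.51 ± 0.133 TPM in LoVo LIN28B and 73.1 ± 8.11 TPM in LoVo EV (-4.39 log2), DKK1 averaged 2.14 ± 0.467 TPM in LoVo LIN28B and 47.7 ± 4.86 TPM in LoVo EV (-3.96 log2), and APCDD1 averaged 23.5 ± 3.0 TPM in LoVo LIN28B and 293 ± 75.1 TPM in LoVo EV (-3.56 log2).

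**Figure D4:**
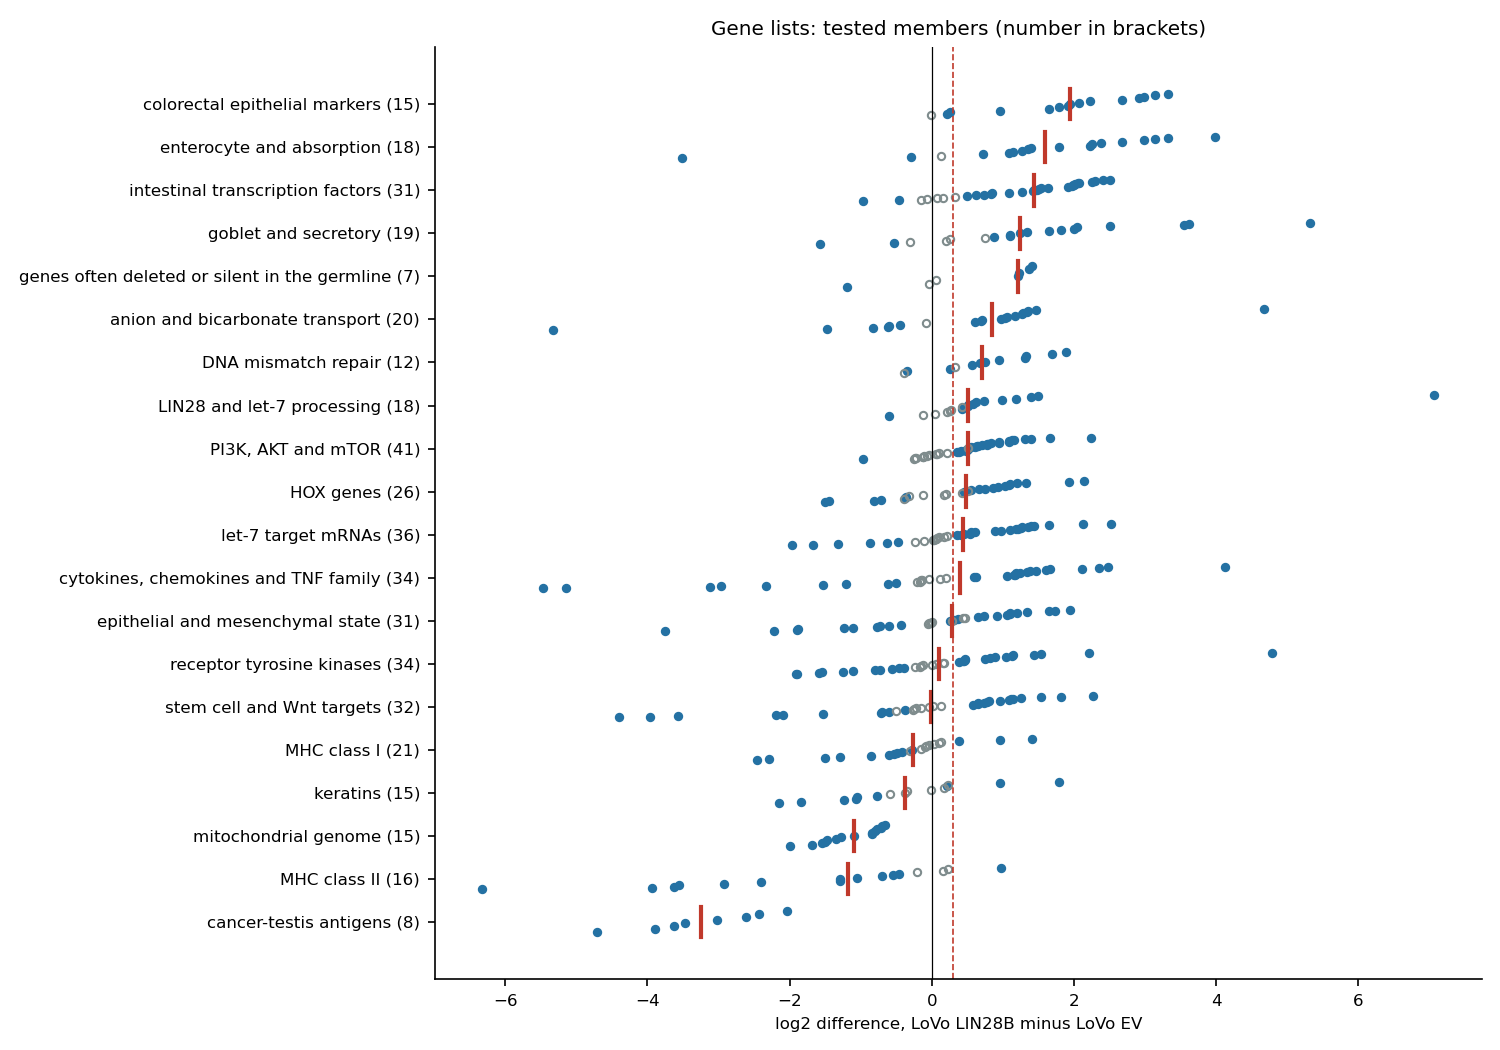
Log2 difference, LoVo LIN28B minus LoVo EV, of each tested member of the gene lists with at least 5 tested members (number in brackets). Filled points are called and open points are not, red bars mark list medians and the dashed line the median of all genes (0.297), and the medians run from -3.246 for cancer-testis antigens, 7 of whose 8 tested members had to differ, to 1.943 for colorectal epithelial markers.

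MHC class II genes were lower in LoVo LIN28B. These molecules present peptides to CD4 T cells, chiefly on immune cells, and epithelia express them through the coactivator CIITA. Of 16 tested, 12 fell (75%, beside 18.3% of all genes) and 1 rose, but 3 of the 16 passed the rule through LoVo EV alone and had to differ. The summed level of all 22 genes of the list, which that rule does not touch, ranged from 247.5 to 259 TPM in LoVo LIN28B and from 564 to 643 TPM in LoVo EV. Much of that gap lay in CD74, named above for the size of its fall, so the sum is no separate support. In DLD-1 0 fell and 1 rose (limma). HLA-DRA, the shared alpha chain of HLA-DR, measured 2.26, 1.94 and 1.08 TPM in LoVo LIN28B and 41.1, 34.8 and 45.9 TPM in LoVo EV (-3.93, limma, adjusted p = 4.64e-09). HLA-DQB1 averaged 1.40 ± 0.325 TPM in LoVo LIN28B and 27.0 ± 0.667 TPM in LoVo EV, HLA-DPA1 averaged 0.755 ± 0.362 TPM in LoVo LIN28B and 20.4 ± 2.61 TPM in LoVo EV, and HLA-DRB1 averaged 0.200 ± 0.345 TPM in LoVo LIN28B and 7.88 ± 1.07 TPM in LoVo EV (SD, n = 3). HLA genes have near-identical relatives, so single members are uncertain. CIITA, named after its values were seen, averaged 1.05 ± 0.642 TPM in LoVo LIN28B and 3.97 ± 1.20 TPM in LoVo EV (-1.30, limma, adjusted p = 0.000241). The gene that rose was LGMN, the lysosomal protease legumain, likewise named after its values were seen, at 109 ± 8.28 TPM in LoVo LIN28B and 56.0 ± 11.3 TPM in LoVo EV. Markers of immune cells were near 0: the summed level of 26 markers ranged from 7.86 to 13.4 TPM in LoVo LIN28B and from 14.7 to 24.1 TPM in LoVo EV, 8 of the 26 were at 0 in all 6 libraries, and CD3D, CD3E and MS4A1, the defining genes of T and B cells, were among those at 0. Of the 3 that could be tested, CD68, a lysosomal protein of macrophages, was lower, at 4.60 ± 0.173 TPM in LoVo LIN28B and 10.9 ± 3.76 TPM in LoVo EV.

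The promoters of 3 of these genes are shown because they hold the letters searched for here. Class II promoters are known to carry a Y box, a CCAAT element bound by NF-Y. The search took the letters ATTGG on either strand in RefSeq promoters (GRCh38.p14, 250 bases before to 50 after the start), with matches in capitals. It found them in 9 of 12 promoters of tested class II genes (75%), against 9747 of 27305 promoters of all genes (35.7%). Both HLA-DPA1 promoters of the table hold none and are not shown. In CD74 (chr5:150412861-150413160, minus strand) the match lies 53 bases upstream of the start, in HLA-DQB1 (chr6:32666608-32666907, minus strand) the matches lie 88 and 64 bases upstream, and in HLA-DRB1 (chr6:32589799-32590098, minus strand) 195 and 46 bases upstream. A match describes letters and not binding.
CD74: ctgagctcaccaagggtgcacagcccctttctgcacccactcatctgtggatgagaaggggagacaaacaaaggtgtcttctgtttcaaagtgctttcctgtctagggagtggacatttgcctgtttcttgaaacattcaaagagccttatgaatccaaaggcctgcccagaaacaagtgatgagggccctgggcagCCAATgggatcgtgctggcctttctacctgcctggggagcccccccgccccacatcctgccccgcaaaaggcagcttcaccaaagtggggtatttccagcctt
HLA-DQB1: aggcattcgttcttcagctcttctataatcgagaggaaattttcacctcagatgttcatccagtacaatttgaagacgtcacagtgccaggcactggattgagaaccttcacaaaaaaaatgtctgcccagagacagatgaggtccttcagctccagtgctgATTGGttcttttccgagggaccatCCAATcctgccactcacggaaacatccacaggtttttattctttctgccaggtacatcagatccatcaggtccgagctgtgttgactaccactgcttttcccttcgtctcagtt
HLA-DRB1: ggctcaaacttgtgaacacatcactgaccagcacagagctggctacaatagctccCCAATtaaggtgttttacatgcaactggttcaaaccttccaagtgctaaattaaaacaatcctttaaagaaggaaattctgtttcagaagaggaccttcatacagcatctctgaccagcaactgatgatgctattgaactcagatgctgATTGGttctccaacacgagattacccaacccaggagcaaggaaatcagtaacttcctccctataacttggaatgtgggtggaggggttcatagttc

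MHC class I presentation genes were more often lower than higher. Of 21 tested, 10 fell (47.6%, beside 18.3% of all genes) and 3 rose (median -0.271 log2), and 17 fell and 2 rose under the scaling. In DLD-1 5 fell and 0 rose (limma), beside 1.60% and 1.54% of all genes. PSMB9, an immunoproteasome subunit, averaged 5.20 ± 1.15 TPM in LoVo LIN28B and 33.0 ± 2.91 TPM in LoVo EV (-2.47 log2), and HLA-B averaged 75.9 ± 1.64 TPM in LoVo LIN28B and 217 ± 24.0 TPM in LoVo EV (-1.50 log2). ERAP2, a peptide-trimming protease, rose, at 18.7 ± 0.727 TPM in LoVo LIN28B and 6.46 ± 0.891 TPM in LoVo EV (1.41 log2). Of 34 tested cytokine, chemokine and TNF family genes 17 rose (50%, beside 45.2% of all genes) and 9 fell (26.5%, beside 18.3%), with a median of 0.399, and 16 and 13 under the scaling. Of the 34, 2 passed the rule through LoVo EV alone and had to differ. IL32, a proinflammatory cytokine, averaged 41.6 ± 0.944 TPM in LoVo LIN28B and 334 ± 40.6 TPM in LoVo EV (-2.97 log2), and IL23A, a subunit of interleukin 23, averaged 0.949 ± 0.426 TPM in LoVo LIN28B and 15.8 ± 2.31 TPM in LoVo EV.

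Epithelial and mesenchymal genes were mixed. Of 31 tested 14 rose and 10 fell (median 0.287 log2), against 11 and 13 under the scaling. Of the 31, 3 passed the rule through LoVo EV alone and had to differ. CDH1, E-cadherin, averaged 259 ± 31.2 TPM in LoVo LIN28B and 66.8 ± 11.6 TPM in LoVo EV (1.94 log2), and ESRP2, an epithelial splicing regulator, averaged 87.2 ± 6.58 TPM in LoVo LIN28B and 37.5 ± 0.731 TPM in LoVo EV. FN1, the matrix protein fibronectin, averaged 4.34 ± 1.49 TPM in LoVo LIN28B and 68.9 ± 5.50 TPM in LoVo EV (-3.75 log2), and ITGB4, an integrin of hemidesmosomes, averaged 60.2 ± 6.38 TPM in LoVo LIN28B and 285 ± 24.3 TPM in LoVo EV (-2.23 log2). The list therefore showed no single trend. Keratins fell in 6 of 15 tested and rose in 3 (median -0.373), against 11 and 2 under the scaling. Of the 15, 4 passed the rule through LoVo EV alone and had to differ: KRT4, KRT5, KRT6A and KRT23. In DLD-1 6 of the 15 fell and 0 rose (limma), beside 1.60% and 1.54% of all genes, with a median of -0.386 log2. The squamous keratins KRT5, KRT6A and KRT16 fell by 1.83, 2.15 and 1.24 log2, and the simple epithelial KRT19 rose by 0.96 log2, at 4737 ± 221 TPM in LoVo LIN28B and 2438 ± 204 TPM in LoVo EV. Summed markers of fibroblasts, endothelium and melanocytes ranged from 10.8 to 14.2 TPM in LoVo LIN28B and from 15.0 to 20.6 TPM in LoVo EV, with 6 of 18 at 0 in all 6 libraries, and of the 4 tested PDGFRB rose and COL1A1 fell.

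Cancer-testis antigens, germline genes that tumours reactivate, were expressed in LoVo EV and hardly in LoVo LIN28B. The list held 63 genes, of which 36 were listed at 0 in all 6 libraries and 8 passed the rule. All 8 fell by limma, but 7 of them passed through LoVo EV alone and had to differ. The other was MAGEB17. The summed level of the whole list is free of that filter, and it ranged from 5.74 to 7.28 TPM in LoVo LIN28B and from 115 to 140 TPM in LoVo EV, beside 5.17 to 7.28 TPM in DLD-1 LIN28B and 5.64 to 8.83 TPM in DLD-1 EV. Much of that gap lay in the genes named in this paragraph, which were chosen for their differences, so the sum is no separate support. MAGEB2 measured 0.169, 0.0656 and 0.0767 TPM in LoVo LIN28B and 23.6, 25.7 and 35.8 TPM in LoVo EV, and was listed at 0 in every DLD-1 LIN28B and DLD-1 EV library. MAGEB17 averaged 2.94 ± 0.238 TPM in LoVo LIN28B and 47.5 ± 2.67 TPM in LoVo EV. MAGEA3, MAGEA2B and CSAG3 averaged 0.0207, 0 and 0 TPM in LoVo LIN28B and 14.5, 7.45 and 10.3 TPM in LoVo EV, values that are uncertain because these X-linked genes have near-identical copies.

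Genes present in every library of 1 group (5 TPM or more) and absent from every library of the other (under 0.5 TPM) were counted, with no test. LoVo LIN28B had 11 such genes, 10 of them protein-coding, and LoVo EV had 50, 41 of them protein-coding. In DLD-1 EV, 5 of the 11 were at 5 TPM or more in every library and 2 under 0.5 TPM in every library. Of the 50, 0 were at 5 TPM or more and 38 under 0.5 TPM in every DLD-1 EV library (76%), beside 64.7% and 3.59% of all 16215 genes. The 11 include DMD, dystrophin, at 6.77 TPM in LoVo LIN28B and 0.260 TPM in LoVo EV, PIP5K1B, a kinase that makes the PI3K substrate, at 9.05 TPM in LoVo LIN28B and 0.185 TPM in LoVo EV, and CHRNA1, the muscle acetylcholine receptor subunit, at 7.32 TPM in LoVo LIN28B and 0.132 TPM in LoVo EV. The 50 include APOBEC3G, a cytidine deaminase that restricts retroviruses, at 0.235 TPM in LoVo LIN28B and 22.6 TPM in LoVo EV, MIR100HG, a noncoding transcript that also hosts a let-7 family member, at 0.242 TPM in LoVo LIN28B and 33.9 TPM in LoVo EV, and HLTF, a DNA translocase of replication repair, at 0.453 TPM in LoVo LIN28B and 7.82 TPM in LoVo EV. CGAS, the sensor of cytosolic DNA, stood at 0.326 TPM in LoVo LIN28B and 5.64 TPM in LoVo EV. These examples were chosen after their values were seen.

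DNA mismatch repair genes were listed because DLD-1 is known for defective MSH6. Such a defect need not show in TPM, so the values below do not identify the line. MSH6 averaged 14.3 ± 0.610 TPM in LoVo LIN28B and 18.5 ± 2.14 TPM in LoVo EV (-0.35, limma, adjusted p = 0.0121), a call lost without LoVo EV replicate 3 (limma, adjusted p = 0.0531). Of the 12 genes of the list 9 rose and 1 fell (median 0.713 log2), with 7 and 2 under the scaling, and PCNA, the sliding clamp, averaged 239 ± 19.4 TPM in LoVo LIN28B and 124 ± 13.7 TPM in LoVo EV. Anion and bicarbonate transport genes, CFTR and CA9 among them, rose in 13 of 20 tested and fell in 6 (median 0.845). SLC26A6, an anion exchanger, averaged 93.0 ± 10.4 TPM in LoVo LIN28B and 44.0 ± 3.68 TPM in LoVo EV. Genes that are deleted or silent in many people were listed as a further check of cell identity, and of 7 tested 4 rose and 1 fell (median 1.216), APOBEC3B, a cytidine deaminase of the nucleus, at 61.8 ± 1.69 TPM in LoVo LIN28B and 23.5 ± 2.78 TPM in LoVo EV among them. GSTM1 did not pass the rule, and GSTT1 was not analysed here.

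Mitochondrially encoded transcripts made up 8.46, 10.3 and 7.24% of all TPM in LoVo LIN28B and 24.0, 23.1 and 14.5% in LoVo EV. All 15 fell by limma (median -1.095 log2), 7 of them without LoVo EV replicates 1 and 2, and 0 once these genes were removed and the rest rescaled, as that alternative takes them out. MT-ATP8, a subunit of ATP synthase, averaged 3505 ± 865 TPM in LoVo LIN28B and 14010 ± 3475 TPM in LoVo EV. The share moves with the groups and with every nuclear TPM. Removing these genes and rescaling the rest left 5986 genes called higher and 3912 lower. The scaled values above rest on all genes listed above 0 in every library, so they do not measure the mitochondrial part alone. Differences over 2 log2 that were not called numbered 9 and were short structural RNAs such as RNU4-2 and RMRP, most of them listed at 0 in some libraries and high in others of the same group.

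The difference also varied along the genome. Relative to the median of all genes, the genes of chromosome 4 (513 genes) lay 0.256 log2 higher in LoVo LIN28B than in LoVo EV, and those of chromosomes 2 and 18 lay 0.229 and 0.22 higher. Genes of chromosome 7 (812 genes) lay at -0.23 and those of chromosome 19 at -0.221. In DLD-1 the chromosome medians stayed between -0.024 and 0.024. LoVo EV minus DLD-1 EV gave -0.249 for chromosome 4 and 0.241 for chromosome 7, a comparison that shares the LoVo EV libraries.

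**Figure D5:**
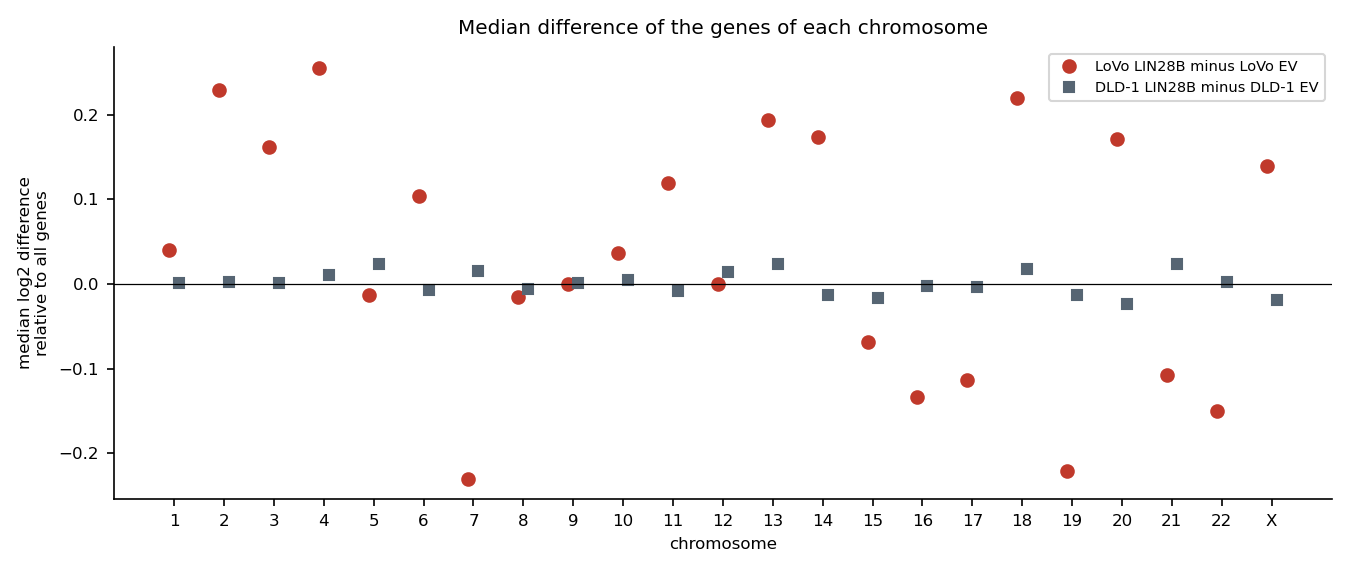
Median log2 difference of the tested genes of each chromosome, relative to the median of all genes, for LoVo LIN28B minus LoVo EV (red circles) and DLD-1 LIN28B minus DLD-1 EV (grey squares). The red circles run from -0.23 on chromosome 7 to 0.256 on chromosome 4, and the grey squares stay within 0.024 of 0.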

How the data were processed

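Per the file headers, the deposited values are TPM, 1 per gene and library, for 18 libraries. The submitters' processing notes name hg38, STAR 2.7.10, Picard, HTSeq and DESeq2, without role or order. The sources used here do not state the annotation, strand use or gene lengths. TPM keeps no depth and fixes each library's total, so no count model or counting interval was used. Libraries were grouped from their labels. Genes with 1 TPM or more in at least 3 of the 6 LoVo-labelled untreated libraries entered limma 3.58.1 as log2(TPM + 1) (R 4.3.3, 6 groups, 12 residual and 4.17 prior degrees of freedom, mean-variance trend, two-sided), adjusted by Benjamini-Hochberg over all 16215 genes and called under 0.05. The added 1 understates changes of low genes. The script was tested on simulated data. The comparison, the 22 gene lists (678 genes) and the alternatives were chosen with earlier results of these data known, so lists are described by counts and medians. Named were the 15 largest rises and falls among called genes with groups that did not overlap and a mean of 2 TPM in 1 group, genes fixed by name, and up to 5 members of a list with the smallest p. Some genes under this rule are not reported here, and counts include them. "The scaling" is division by median-of-ratios factors. Positions are from GENCODE 29, matched by gene identifier, and 58254 identifiers had one. Sequences are from RefSeq (GRCh38.p14) and GENCODE 29, with 1 3′ UTR per gene, the longest of its principal transcripts.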

Additional observations from a re-analysis of the deposited data

Results flagged for a closer look

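For 41 of the 49 genes named by size or by design, the difference between LIN28B and EV under the LoVo label differed from that in DLD-1 in a limma test of the difference itself (adjusted p under 0.05), as it did for 48.9% of all genes. Of the 41, 29 were chosen for the size of their difference under the LoVo label, so their count is a description. Values are the log2 difference under the LoVo label minus that in DLD-1, a positive one meaning a larger or more positive change under the LoVo label. Groups of 3 were not examined for outlying samples.

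Among genes that rose under the LoVo label, the value was 5.46 for TFF3, 5.22 for NDUFA4L2, 5.02 for KIT, 5.01 for SLC39A2, 4.84 for CFTR and 4.42 for SH3PXD2A. It was 4.24 for PARM1, 4.22 for TIMP4, 3.92 for CXCL5 and for GASK1B, 3.89 for TDO2, 3.64 for NUPR1 and 3.58 for FABP1. Among genes that fell, it was -6.41 for CD74, -6.29 for TNFRSF6B, -6.06 for SUGCT, -5.85 for GTSF1, -5.37 for AKAP12, -5.30 for CA9 and -5.27 for LTB. It was -4.94 for CCL2, -4.92 for ADIRF, -4.85 for BST2, -4.83 for WNT16, -4.71 for MAGEB2, -4.70 for IFI27 and -4.46 for NPW. FABP1, TNFRSF6B, GTSF1, MAGEB2 and NPW were listed at 0 in 1 or more groups, so their values depend on the 1 TPM added before the logarithm.

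Of the genes named by design, CDX2 had a value of 2.24, KRT20 of 1.90, ERAP2 of 1.70, PIK3R1 of 1.12, PIK3CA of 1.10 and PIK3CB of 0.75. HMGA2 had -2.18, with changes of opposite sign called in each line. MYC had -1.17 and MSH6 -0.47. IGF1R had 0.60, although it was called in neither line alone. Each value uses the LoVo-labelled libraries, so it carries the difference in cell background described above.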

How the results depend on the processing

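Of the 735 recomputed differences of named genes, 704 kept direction and side of the threshold, and of 630 list counts 589 stayed within 1.5 times. The named genes include the 30 largest rises and falls, chosen as large called differences, so their stability was largely set by that choice. All changes fell among genes fixed by name and outside the 30. The count of called genes, 10300, ranged from 7395 (without LoVo EV replicates 1 and 2, which held the most mitochondrial RNA) to 11362 (no filter). Without mitochondrial genes 5986 were higher and 3912 lower. Under median-of-ratios scaling 4819 genes were higher and 4906 lower, and the difference between the lines was called for 3650 higher and 3684 lower. Leaving out 1 library at a time gave 9410 to 10554 calls for LIN28B versus EV. For LoVo-labelled versus DLD-1 LIN28B it gave 634 to 865 lower genes, the fewest without DLD-1 LIN28B replicate 1, against 1087 with all. HMGA1 turned to -0.33 under the scaling, -0.17 without mitochondrial genes and -0.24 without LoVo EV replicates 1 and 2, and ranged from -0.068 to 0.17 with 1 library left out. AKT2 turned to -0.27 under the scaling and -0.11 without mitochondrial genes. IRS2 turned to -0.21 under the scaling, -0.085 without mitochondrial genes and -0.0074 without LoVo EV replicates 1 and 2, and ranged from -0.02 to 0.18 with 1 library left out. IGF1R turned to -0.28 under the scaling, -0.13 without mitochondrial genes and -0.17 without LoVo EV replicates 1 and 2, and ranged from -0.043 to 0.17 with 1 library left out. INSR, at -0.23, was called under the scaling (-0.55). None of these 5 was called at first, and the cause was not tested. Same-numbered libraries showed no clear shared deviation (r of -0.08, 0.053 and 0.003 for LoVo, and -0.006, -0.082 and 0.146 for DLD-1). Deviations from a mean of 3 libraries cannot show whether the numbers pair them, and the main model used no pairing. A replicate block gave 10131 calls, 7227 higher and 2904 lower. Depth is unknown and cannot be weighed.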
